A study of Homo sapiens with 30 samples.

Results

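The genes described here encode the proteasome and the proteins that assemble or cap it. They are the symbols in the count files that begin with PSM, a letter from A to G and a digit, leaving out the immunoproteasome subunits PSMB8, PSMB9 and PSMB10 and antisense entries. The rule found 46 of 25680 symbols, and each symbol was represented by its transcript with the highest mean count. It did not use any difference between groups. Of the 46 genes, 16 encode the 20S core, 17 the 19S cap, 7 assembly factors, 4 activators and 1 an inhibitor. The remaining symbol, PSMC3IP, matches the pattern but encodes a partner of the meiotic recombinases and no proteasome subunit.

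RNA was sequenced from OPM2 and H929, established human multiple myeloma cell lines, treated for 24 h with 100 nM dBRD9-A or with its solvent DMSO. dBRD9-A is a small molecule that marks the protein BRD9, a bromodomain subunit of the noncanonical BAF chromatin remodelling complex, for degradation. The 4 groups (OPM2 with DMSO, OPM2 with dBRD9-A, H929 with DMSO, H929 with dBRD9-A) held 3 libraries each. The labels do not say whether the 3 libraries of a group stem from separate cultures, so each p-value rests on a spread that may be technical. Not analysed here were 18 other listed samples, which carry hairpins against BRD9 or luciferase or are OPM2 polysome RNA.

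The proteasome is the main protease for ubiquitin-tagged proteins. Its 20S core is a barrel of outer alpha and inner beta rings, with the proteolytic sites inside on PSMB5, PSMB6 and PSMB7, and the 19S cap recognises, unfolds and feeds in substrates. Dedicated chaperones build both parts, and myeloma cells, which secrete much antibody, are known for their sensitivity to proteasome inhibitors such as bortezomib.

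Library totals, with 1 transcript per gene, were 24524193 in OPM2 dBRD9-A replicate 2 and 42895389 to 76600945 in the other 11 libraries. Replicate 2 of the treated OPM2 group stood apart in the deviation of its gene values from the mean of the other libraries of its group. The SD was 0.792 on the log2 scale, against 0.108 to 0.444 in the other libraries. Its deviations ran with transcript GC content (Spearman -0.701 over 9281 genes), but those of other libraries did too. The coefficient was -0.625 and 0.645 in treated H929 replicates 1 and 2. It was 0.636 and 0.708 in treated OPM2 replicates 1 and 3, whose reference mean includes replicate 2. Counts in OPM2 are given with and without treated replicate 2 because of its SD. The BRD9 transcript was at 89.7 ± 4.02 CPM (counts scaled to the library total and by TMM, mean ± SD, n = 3) with DMSO and 76.4 ± 8.04 with dBRD9-A in OPM2, a difference that missed the threshold (edgeR adjusted p = 0.241). In H929 it fell from 87.7 ± 13.5 to 63.6 ± 6.80 (edgeR adjusted p = 0.0391). The degrader acts on the protein, so the transcript is no check of the treatment. Summed CPM of 6 myeloma cell markers was 4576 to 5383 with DMSO and 3621 to 5001 with dBRD9-A in OPM2, and 5285 to 5924 against 4544 to 4849 in H929. The H929 groups did not overlap, and of the 6 markers IRF4 alone was called, lower in H929 (-0.72 ± 0.21, edgeR adjusted p = 0.045). Summed CPM of 9 markers of other cell types was 6.26 to 7.25 with DMSO and 4.08 to 4.59 with dBRD9-A in OPM2, and 26.5 to 29.01 against 42.8 to 48.9 in H929. CD3E made up most of the H929 sum (24.1 ± 1.21 and 37.7 ± 1.49 CPM). HBB made up most of the OPM2 sum (6.175 ± 0.395 and 3.191 ± 0.1585 CPM). Its OPM2 groups did not overlap, but the lower value with dBRD9-A missed the threshold (-0.955 ± 0.309, edgeR adjusted p = 0.0516). In each line 2 of the 9, KRT8 and COL1A1, were called higher with dBRD9-A and none was called lower (edgeR). Their mean CPM went from 0.0235 to 0.137 and from 0.0691 to 0.298 in OPM2 and from 2.67 to 5.83 and from 0.217 to 1.81 in H929. COL1A2 was at 0 in all 12 libraries. The part of these markers in the results was not tested.

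Most proteasome genes were well expressed, and 44 of the 46 passed the filter on low counts. PSMA8, the testis-specific alpha subunit, had 0, 2 and 2 reads in OPM2 with DMSO and 4, 0 and 1 with dBRD9-A. In H929 it had no read with DMSO, and 0, 0 and 1 with dBRD9-A. PSMB11, the catalytic subunit of the thymus, had 1 read in H929 DMSO replicate 1 and 0 in the other 11 libraries. Neither gene was tested. The 46 genes together took 0.52 to 0.62% of the counts of a library.

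Per transcript length, the deposited TPM values put the core above the cap and the cap above the assembly factors. With DMSO, the median over the 14 tested core subunits was 117 TPM in OPM2 and 104 TPM in H929. The corresponding median over 17 cap subunits was 74.2 and 70.4 TPM, and that over 7 assembly factors 19.3 and 18.1 TPM. PSMB4, a noncatalytic beta subunit, was the highest of all tested members in both lines at 418 ± 7.50 and 435 ± 29.4 TPM (SD, n = 3). The highest cap subunit was PSMD4, a ubiquitin receptor, at 219 ± 4.23 and 231 ± 9.18 TPM. The lowest core subunit was PSMA5, at 12.6 ± 0.597 TPM in OPM2 and 28.8 ± 1.48 TPM in H929. Its transcript in the files is 3826 bases long, so reads that stem from a shorter form would give a TPM that is too low. Among the catalytic subunits, PSMB7 (trypsin-like) was at 116 ± 1.90 and 130 ± 5.70 TPM, PSMB6 (caspase-like) at 72.6 ± 2.88 and 97.2 ± 7.26 TPM, and PSMB5 (chymotrypsin-like, the main target of bortezomib) at 36.3 ± 2.07 and 39.3 ± 3.75 TPM. This order of the catalytic subunits held in both lines, with no overlap of libraries between neighbours.

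**Figure D1:**
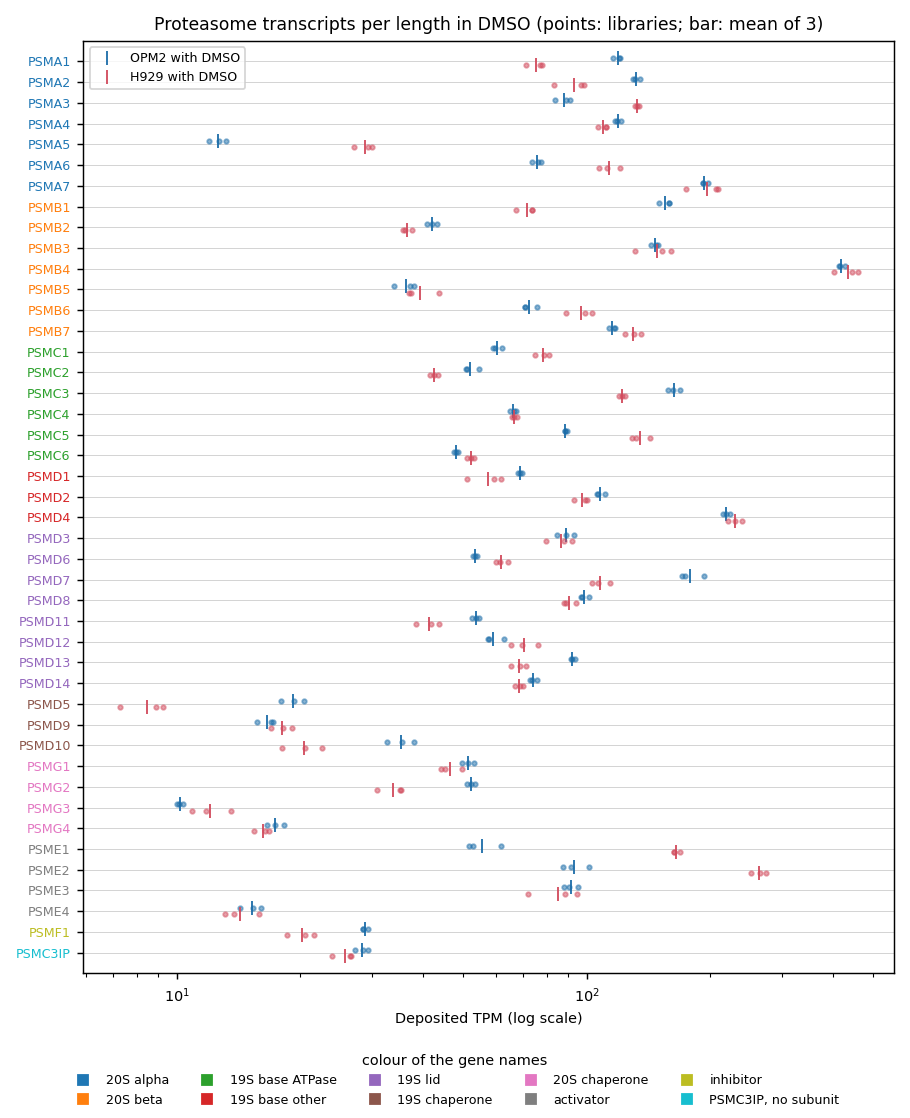
Deposited TPM (log scale) of the 44 tested genes with DMSO in OPM2 (blue) and H929 (red); points are libraries, bars the means of 3, and the colours of the names give the class. PSMB4 lies highest, the assembly factors lie to the left of most subunits, and PSMA5, PSME1 and PSME2 sit further right in H929.

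The order of the 31 tested core and cap subunits by mean TPM was nearly the same with and without dBRD9-A. As a description, the Spearman correlation over these subunits was 0.969 between the OPM2 groups and 0.986 between the H929 groups. Between the lines with DMSO it was 0.818. All of these comparisons share gene lengths. PSMD7 ranked 4 in OPM2 and 11 in H929, PSMB1 ranked 6 and 19, and PSMC5 ranked 16 and 5.

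The first question was which of these transcripts changed after treatment with dBRD9-A. In each line 6 of the 44 tested genes fell, to 0.665 to 0.788 of their DMSO level in OPM2 and to 0.577 to 0.796 in H929, and none rose (edgeR, adjusted p under 0.05). PSMG1, PSMG4 and PSME3 fell in both lines. The 6 genes are 13.6% of those tested. Over all 16408 genes tested, 17.4% were called in OPM2 and 13.0% in H929, so the share of called genes was near or below the background. Called lower were 7.34% of all genes in OPM2 and 5.67% in H929, and called higher were 10.1% and 7.33%. Called lower in both lines were 3 of the 44 (6.82%), against 3.19% of all genes.

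The direction was shared more widely than the calls. The fold change was negative for 34 of 44 genes in OPM2 (77.3%, against 46.6% of all genes) and for 41 of 44 in H929 (93.2%, against 50.2%). The OPM2 count was 27 with the length trend removed, 29 without OPM2 dBRD9-A replicate 3 and 39 without OPM2 dBRD9-A replicate 2. With scaling by library size alone it was 30 in OPM2 and 34 in H929. The median log2 fold change was -0.14 in OPM2, where that of all genes was 0.03, and -0.18 in H929, where that of all genes was 0.00. The H929 median was -0.09 without H929 dBRD9-A replicate 1 (all genes 0.02) and -0.08 with scaling by library size alone (all genes 0.09). All 3 treated libraries lay below all 3 DMSO libraries for 21 genes in each line (47.7%). Over all genes that share was 18.9% in OPM2 and 23.6% in H929. For 14 genes (31.8%, against 11.3% of all genes) this held in both lines. PSME4 in OPM2 was the only gene whose treated libraries all lay above the DMSO libraries. In bulk RNA, fewer cells with a transcript and less of it per cell cannot be told apart.

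Without OPM2 dBRD9-A replicate 2, 12 of the 44 genes were called in OPM2 and 16 in H929, all lower, and the calls above were among them. Calls rose over all genes too: of 16653 tested in that fit, 5277 were called in OPM2 (2591 lower) and 5946 in H929 (2748 lower). The spread of each gene is estimated over all 4 groups, so 1 library in OPM2 also moves the calls in H929. The fold changes of the genes also ran with the GC content of their transcripts, which spans 37.3% (PSMA5) to 58.8% (PSMG3): as a description, Spearman was -0.523 in OPM2 over the 44 genes, -0.278 without replicate 2, and -0.248 in H929. The part of GC content in the OPM2 values was not tested beyond the fit with the GC trend removed, which called 8 genes in OPM2 and 12 in H929, all lower. Over all 16408 genes, that fit called 4215 in OPM2 (2126 lower) and 3548 in H929 (1778 lower). Of the 6 reported calls in OPM2 it kept 3 (PSMG1, PSME3 and PSMC4) and lost PSMG4, PSMA5 and PSME2, and in H929 it kept all 6. The PSMA5 value in OPM2 did not shrink: it was -0.75 ± 0.29 in that fit (edgeR adjusted p = 0.0729) and -0.59 ± 0.17 as reported.

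**Figure D2:**
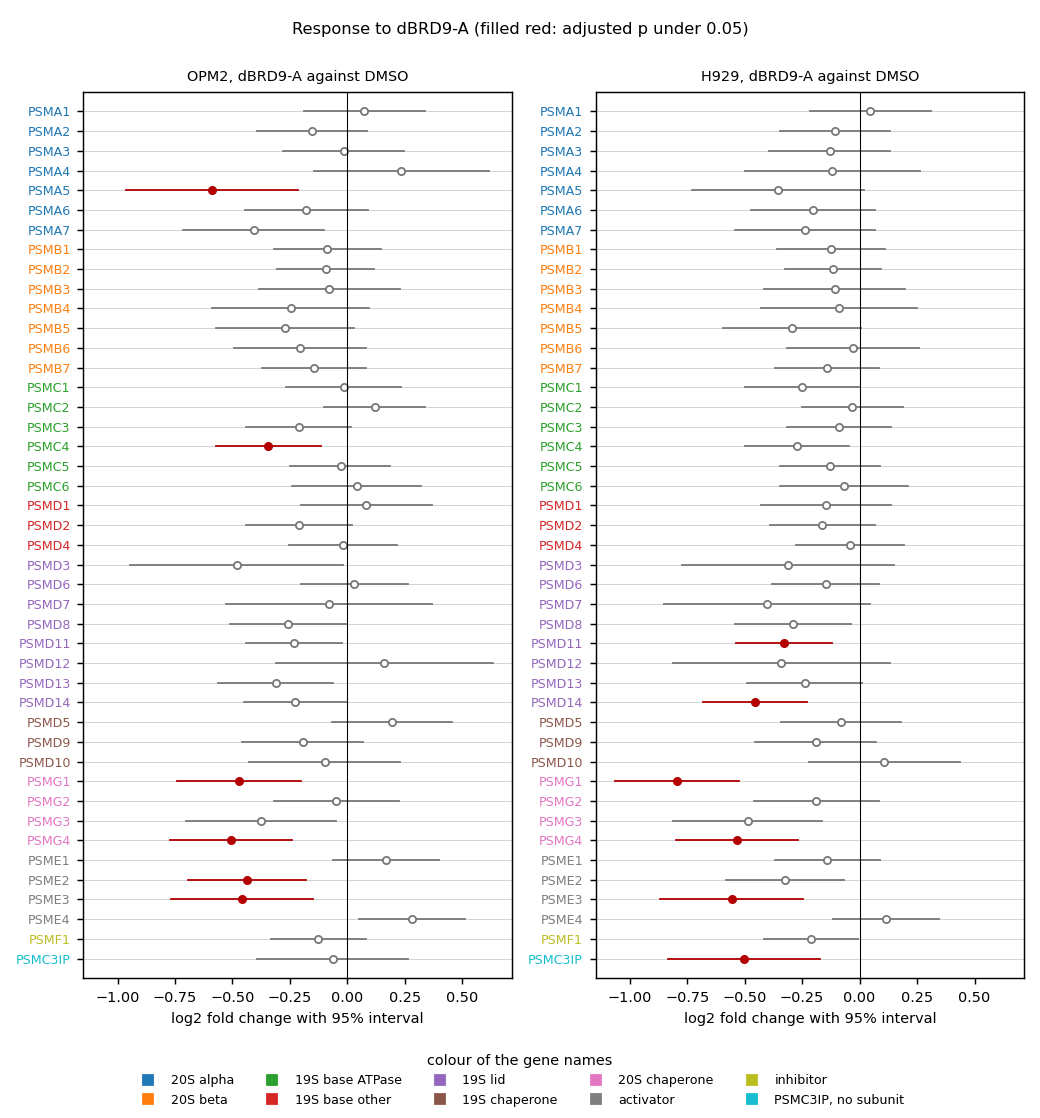
Log2 fold change of each tested gene with dBRD9-A against DMSO in OPM2 (left) and H929 (right), with 95% intervals; filled red points have an adjusted p under 0.05. Most points lie left of 0 in both lines, and PSMG1, PSMG4 and PSME3 are filled in both.

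PSMG1, PSMG4 and PSME3 are the genes that fell in both lines, and the 250 bases before their transcription starts are shown for that reason (RefSeq, GRCh38.p14, 5′ to 3′ on the gene's strand). PSMG1 lies on the minus strand (chr21:39183452-39183701), PSMG4 on the plus strand (chr6:3258697-3258946) and PSME3 on the plus strand (chr17:42833147-42833396). Capitals mark the motif matches described after the sequences.
PSMG1: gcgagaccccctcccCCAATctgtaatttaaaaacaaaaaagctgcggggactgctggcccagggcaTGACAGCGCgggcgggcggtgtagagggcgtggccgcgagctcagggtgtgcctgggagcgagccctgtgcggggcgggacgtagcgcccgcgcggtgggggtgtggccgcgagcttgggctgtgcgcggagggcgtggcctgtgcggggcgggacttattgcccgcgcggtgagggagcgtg
PSMG4: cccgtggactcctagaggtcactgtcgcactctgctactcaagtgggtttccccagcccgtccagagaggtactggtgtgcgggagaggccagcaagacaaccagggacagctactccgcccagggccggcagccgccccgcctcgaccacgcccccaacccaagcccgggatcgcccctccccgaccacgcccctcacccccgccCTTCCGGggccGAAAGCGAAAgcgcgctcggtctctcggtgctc
PSME3: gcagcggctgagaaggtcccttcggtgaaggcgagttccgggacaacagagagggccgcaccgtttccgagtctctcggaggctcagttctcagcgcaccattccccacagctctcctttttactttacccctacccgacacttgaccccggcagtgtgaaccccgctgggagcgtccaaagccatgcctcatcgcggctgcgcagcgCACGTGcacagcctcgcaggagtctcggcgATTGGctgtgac
The PSMG1 stretch holds an NF-Y box (CCAAT, from -235 to -231 of the start) and an antioxidant response element core (TGACNNNGC, from -183 to -175), the element bound by the NRF factors that drive proteasome genes. The PSMG4 stretch holds an ETS site (CCGGAAG, on the opposite strand, from -44 to -38) and an interferon-stimulated response element core (GAAA, any 2 bases and GAAA, from -33 to -24). The PSME3 stretch holds an E-box (CACGTG, from -42 to -37) and an NF-Y box on the opposite strand (from -12 to -8). No motif was shared by all 3.

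Promoters of 300 bases, 250 before and 50 after the start, were found for 40 of the 46 genes (not PSMA7, PSMB1, PSMB6, PSMB7, PSMD4 and PSMG3) and searched on both strands. The antioxidant response element core was in 12 of 40 (30.0%), against 13.6% of 27305 promoters. Those 12 were PSMB3, PSMC4, PSMD1, PSMD3, PSMD5, PSMD9, PSMD12, PSME1, PSME2, PSME4, PSMG1 and PSMG2. The ETS site was in 14 (35.0%), against 10.7% of promoters. The NF-Y box was in 19 (47.5%), against 35.7%, and the E-box in 3 (7.50%), against 7.43%. The interferon element, a motif added after the values had been seen, was in PSMA4, PSMB4, PSME1, PSME2 and PSMG4 (12.5%), against 3.65% of promoters. A match describes letters in a window and is not a binding site.

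The chaperones of the 20S core had median log2 fold changes of -0.42 in OPM2 and -0.51 in H929, against -0.15 and -0.12 for the core itself. With the GC trend removed, the OPM2 median was -0.24 for the chaperones and -0.22 for the core, while the H929 medians were -0.51 and -0.13. They act as dimers of PSMG1 with PSMG2 and of PSMG3 with PSMG4, which line up the alpha subunits into a ring. PSMG1 was at 55.2, 56.3 and 58.8 CPM in the OPM2 DMSO libraries and at 37.6, 48.5 and 36.8 CPM with dBRD9-A. In H929 it was at 56.3, 62.3 and 53.6 CPM with DMSO and at 31.1, 32.8 and 35.5 CPM with dBRD9-A. Every treated library lay below every DMSO library of its line, and treated OPM2 replicate 2 was the highest of the treated libraries. The log2 fold change of PSMG1 was -0.47 ± 0.12 (SE) in OPM2 (edgeR adjusted p = 0.0226) and -0.79 ± 0.13 in H929 (edgeR adjusted p = 0.00209). Without that library the OPM2 value was -0.62 ± 0.09 (edgeR adjusted p = 0.000131).

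PSMG4 was at 15.1, 16.4 and 15.8 CPM in OPM2 with DMSO and at 11.5, 10.9 and 10.97 CPM with dBRD9-A. In H929 the DMSO libraries were at 17.2, 17.3 and 15.03 CPM and the treated ones at 10.1, 12.7 and 11.4 CPM. The groups did not overlap in either line, and all libraries of the same treatment lay close together. Its log2 fold change was -0.51 ± 0.12 in OPM2 (edgeR adjusted p = 0.0146) and -0.53 ± 0.12 in H929 (edgeR adjusted p = 0.0138). With the GC trend removed, the OPM2 value was -0.31 ± 0.14 and no longer called (edgeR adjusted p = 0.115).

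PSMG3, the partner of PSMG4, was at 14.01, 13.5 and 13.5 CPM with DMSO and 9.89, 10.4 and 11.2 CPM with dBRD9-A in OPM2. In H929 it was at 18.2, 20.7 and 15.7 CPM with DMSO and at 10.7, 15.2 and 13.2 CPM with dBRD9-A. Its groups did not overlap in either line, but the test missed the threshold in OPM2 (-0.38 ± 0.15, edgeR adjusted p = 0.103) and in H929 (-0.49 ± 0.15, edgeR adjusted p = 0.0505). PSMG2, the partner of PSMG1, had overlapping groups in both lines, with log2 fold changes of -0.05 ± 0.13 in OPM2 and -0.19 ± 0.13 in H929. The OPM2 overlap came from treated replicate 2 alone: the treated libraries were at 51.1, 64.3 and 49.4 CPM, and the DMSO libraries at 55.01 to 58.1 CPM. Without that library the OPM2 value of PSMG2 was -0.19 ± 0.09 and not called (edgeR adjusted p = 0.137). Whether PSMG1 and PSMG2 differ in their response was not tested.

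**Figure D3:**
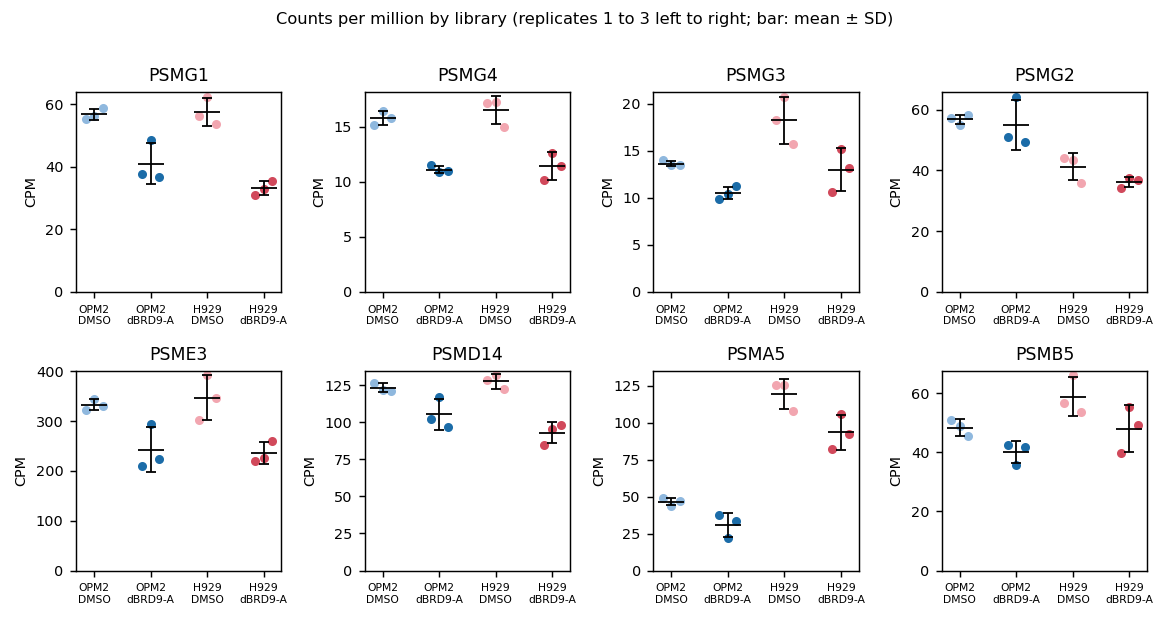
CPM by library for the 20S chaperones PSMG1, PSMG4, PSMG3 and PSMG2 (top) and for PSME3, PSMD14, PSMA5 and PSMB5 (bottom), with replicates 1 to 3 from left to right and the mean ± SD of 3 libraries. Treated libraries of PSMG1, PSMG4 and PSME3 lie below the DMSO libraries in both lines, whereas those of PSMG2 overlap, in OPM2 through treated replicate 2 alone.

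The chaperones of the 19S cap, PSMD5, PSMD9 and PSMD10, bind the ATPases before the ring closes. None of the 3 was called in either line. Their medians were -0.10 in OPM2 and -0.08 in H929. PSMD5 was at 60.7, 64.4 and 69.2 CPM with DMSO and at 67.8, 84.0 and 70.6 CPM with dBRD9-A in OPM2. In H929 it was at 28.3, 35.5 and 32.1 CPM with DMSO and at 30.4, 29.4 and 30.9 CPM with dBRD9-A. The groups overlapped in both lines (0.19 ± 0.12 and -0.08 ± 0.12).

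In the alpha ring, whose subunits gate the core, 1 of 7 tested genes fell in OPM2 and none was called in H929. PSMA5 was at 49.0, 43.98 and 47.1 CPM in OPM2 with DMSO and at 37.4, 22.0 and 33.5 CPM with dBRD9-A. Treated replicate 2 was the lowest library, and the groups did not overlap. The log2 fold change was -0.59 ± 0.17 (edgeR adjusted p = 0.0360), and -0.41 ± 0.11 without replicate 2 (edgeR adjusted p = 0.00979). In H929 the PSMA5 libraries were at 125, 126 and 108 CPM with DMSO and at 82.1, 106 and 92.6 CPM with dBRD9-A, also with no overlap. That difference was not called (-0.36 ± 0.17, edgeR adjusted p = 0.205), and the difference between the lines was 0.23 with a 95% interval of -0.29 to 0.76. PSMA7 came next in OPM2 at -0.41 ± 0.14 (edgeR adjusted p = 0.0661). The other 5 alpha genes lay between -0.18 (PSMA6) and 0.23 (PSMA4) in OPM2.

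The beta ring had no call in either line, although all 7 tested genes had negative fold changes in both. Their medians were -0.14 in OPM2 and -0.12 in H929. PSMB5 was at 50.8, 49.0 and 45.4 CPM with DMSO and at 42.5, 35.6 and 41.9 CPM with dBRD9-A in OPM2. In H929 it was at 56.8, 66.1 and 53.6 CPM with DMSO and at 39.7, 55.3 and 49.1 CPM with dBRD9-A. The groups were apart in OPM2 and overlapped in H929 by 1 treated library. Its log2 fold changes of -0.27 ± 0.14 and -0.29 ± 0.14 missed the threshold (edgeR adjusted p = 0.191 and 0.195), with 95% intervals of -0.57 to 0.03 and -0.59 to 0.01.

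PSMB6 was at 60.1, 63.5 and 59.9 CPM with DMSO and at 56.9, 49.4 and 52.6 CPM with dBRD9-A in OPM2. In H929 it was at 96.6, 99.0 and 80.7 CPM with DMSO and at 77.1, 107 and 86.8 CPM with dBRD9-A. The groups were apart in OPM2 (-0.21 ± 0.13) and overlapped in H929 (-0.03 ± 0.13). PSMB7 was at 116, 113 and 112 CPM with DMSO and at 100, 111 and 97.02 CPM with dBRD9-A in OPM2. Its H929 libraries were at 154, 146 and 131 CPM with DMSO and at 118, 139 and 132 CPM with dBRD9-A. The groups were apart in OPM2 and overlapped in H929, and PSMB7 had the same log2 fold change of -0.14 ± 0.10 in both lines.

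Of the 6 ATPases of the base, which pull substrates into the core, PSMC4 fell in OPM2. It was at 124, 120 and 125 CPM with DMSO and at 99.6, 90.1 and 101 CPM with dBRD9-A, with no overlap (-0.34 ± 0.10, edgeR adjusted p = 0.0410). In H929 PSMC4 was at 141, 143 and 132 CPM with DMSO and at 103, 128 and 113 CPM with dBRD9-A. Those groups were also apart but not called (-0.27 ± 0.10, edgeR adjusted p = 0.108). The other ATPases lay between -0.21 (PSMC3) and 0.12 (PSMC2) in OPM2 and between -0.25 (PSMC1) and -0.03 (PSMC2) in H929. None of PSMD1, PSMD2 and PSMD4, the scaffold and receptor subunits of the base, was called.

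The lid carries PSMD14, the deubiquitinase that strips ubiquitin from substrates, and 2 of its 8 genes were called lower in H929 and none in OPM2. Without OPM2 dBRD9-A replicate 2, the lid genes PSMD7, PSMD8, PSMD12 and PSMD14 were called lower in OPM2. That fit called PSMD3, PSMD7, PSMD8, PSMD11, PSMD12, PSMD13 and PSMD14 lower in H929. PSMD7 in OPM2 was -0.08 ± 0.21 as reported and -0.47 ± 0.09 without that library (edgeR adjusted p = 0.00158). PSMD14 was at 128, 132 and 122 CPM in H929 with DMSO and at 84.9, 95.8 and 98.5 CPM with dBRD9-A. The groups were well apart, at -0.46 ± 0.10 (edgeR adjusted p = 0.0138). In OPM2 it was at 127, 122 and 121 CPM with DMSO and at 102, 117 and 96.8 CPM with dBRD9-A. These did not overlap either, but the change was not called (-0.23 ± 0.10, edgeR adjusted p = 0.148), while it was called without replicate 2 (-0.32 ± 0.08, edgeR adjusted p = 0.00942).

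PSMD11, a lid subunit that contacts both core and base, was at 172, 193 and 174 CPM in H929 with DMSO and at 134, 146 and 150 CPM with dBRD9-A. In OPM2 it was at 214, 203 and 210 CPM with DMSO and at 184, 167 and 182 CPM with dBRD9-A. The groups were apart in both lines, and the test called H929 (-0.33 ± 0.10, edgeR adjusted p = 0.0411) but not OPM2 (-0.23 ± 0.10, edgeR adjusted p = 0.114). All 8 lid genes had negative fold changes in H929, with a median of -0.32, and 6 of 8 had them in OPM2, with a median of -0.23. PSMD12 was at 90.3, 172 and 83.3 CPM in the treated OPM2 libraries and 98.9 to 109 CPM with DMSO, so replicate 2 alone lay above the DMSO range. Its log2 fold change in OPM2 was 0.16 ± 0.22 with that library and -0.26 ± 0.09 without it (edgeR adjusted p = 0.0313).

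Among the activators, which open the core without the 19S cap, PSME3 fell in both lines. It forms the nuclear activator PA28 gamma. PSME3 was at 323, 344 and 331 CPM with DMSO and at 209, 294 and 224 CPM with dBRD9-A in OPM2. The H929 libraries were at 302, 392 and 347 CPM with DMSO and at 220, 227 and 261 CPM with dBRD9-A. No treated library reached the DMSO range of its line. The log2 fold change was -0.46 ± 0.14 in OPM2 (edgeR adjusted p = 0.0447) and -0.56 ± 0.14 in H929 (edgeR adjusted p = 0.0244).

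PSME2, which forms the cytoplasmic activator with PSME1, was at 70.4, 72.7 and 81.3 CPM with DMSO and at 56.3, 50.8 and 58.9 CPM with dBRD9-A in OPM2. The groups were apart, and PSME2 fell by 0.44 on the log2 scale (SE 0.12, edgeR adjusted p = 0.0260). With the GC trend removed, the OPM2 value of PSME2, whose transcript has 57.6% GC, was -0.27 ± 0.11 and no longer called (edgeR adjusted p = 0.0894). In H929 it was at 253, 242 and 217 CPM with DMSO and at 168, 213 and 189 CPM with dBRD9-A, apart but not called (-0.33 ± 0.12, edgeR adjusted p = 0.0919). Its partner PSME1 was not called, and its groups overlapped, in either line (0.17 ± 0.11 and -0.14 ± 0.11).

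PSME4 encodes PA200, a large activator that binds acetylated histones. It was at 106, 97.5 and 111 CPM with DMSO and at 119, 140 and 123 CPM with dBRD9-A in OPM2. The treated libraries were all higher, but the change was not called (0.28 ± 0.11, edgeR adjusted p = 0.0878). In H929 PSME4 was at 104, 108 and 117 CPM with DMSO and at 127, 111 and 119 CPM with dBRD9-A, and the groups overlapped (0.12 ± 0.11). PSMF1, the proteasome inhibitor PI31, was at 102, 104 and 102 CPM with DMSO and at 91.5, 91.7 and 99.5 CPM with dBRD9-A in OPM2. The H929 libraries were at 76.8, 83.7 and 83.0 CPM with DMSO and at 64.4, 72.0 and 73.9 CPM with dBRD9-A. Its treated libraries lay below the DMSO range in both lines, but neither change was called (-0.13 ± 0.10 and -0.21 ± 0.10, edgeR adjusted p = 0.379 and 0.173).

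PSMC3IP was at 46.3, 50.6 and 48.1 CPM in H929 with DMSO and at 32.4, 36.2 and 33.7 CPM with dBRD9-A. It fell, with no overlap (-0.50 ± 0.15, edgeR adjusted p = 0.0474). In OPM2 it was at 48.1, 45.3 and 49.4 CPM with DMSO and at 36.7, 58.6 and 41.5 CPM with dBRD9-A. Treated replicate 2 was the highest of the 6 OPM2 libraries (-0.06 ± 0.15, edgeR adjusted p = 0.807), and without it PSMC3IP was called lower.

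The next question was whether any of these genes responded differently in the lines. None of the 44 was called for the difference of the responses (edgeR), and none had an unadjusted p under 0.05, against 8.6% of all genes. DESeq2 and limma-voom called none either. Over all genes, 0.579% were called at the adjusted threshold. The point estimates, H929 minus OPM2, ran from -0.50 for PSMD12 to 0.23 for PSMA5. For PSMG1 the difference was -0.32 with a 95% interval of -0.70 to 0.06, and for PSMD14 it was -0.23 with an interval of -0.55 to 0.09. These intervals leave room for differences as large as the responses themselves, so calls present in 1 line alone are not shown to differ.

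How many genes were called depended on the libraries. PSMG1 in H929 kept its call in all 24 alternative fits, and PSMD14 in H929 lost it in 2. PSMG4 and PSME3 in H929 each lost it in 4, all with 1 H929 library left out, where the adjusted p reached 0.0901 and 0.132 (edgeR). These were the fits without DMSO replicate 2 or dBRD9-A replicate 1 for both genes, without DMSO replicate 1 or dBRD9-A replicate 3 for PSMG4, and without DMSO replicate 3 or dBRD9-A replicate 2 for PSME3. PSMC3IP and PSMD11 in H929 lost it in 15 and 17. In OPM2, PSMG4 lost it in 5, PSMG1 in 6, PSME3 in 8, PSME2 in 9, and PSMA5 and PSMC4 in 10. No called gene changed direction in any of these fits. Leaving out OPM2 dBRD9-A replicate 3 also ended the OPM2 call of PSME3, and leaving out H929 DMSO replicate 2 or H929 dBRD9-A replicate 3 ended that of PSMA5. The H929 calls of PSMD11 and PSMC3IP ended on leaving out any 1 OPM2 DMSO library. Leaving out OPM2 DMSO replicate 2 or replicate 3 ended all 6 calls in OPM2. Leaving out OPM2 DMSO replicate 1 left 1 call and leaving out OPM2 dBRD9-A replicate 1 left 2. In H929, leaving out DMSO replicate 2 or dBRD9-A replicate 1 left 1 call, and leaving out DMSO replicate 1 or 3 or dBRD9-A replicate 3 left 3.

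**Figure D4:**
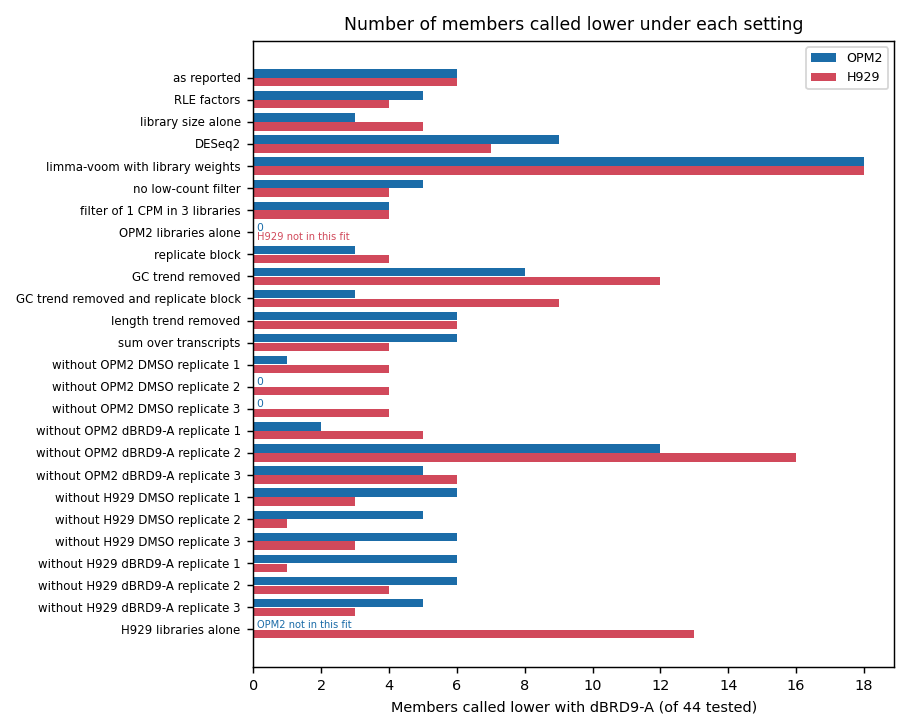
Number of the 44 tested genes called lower with dBRD9-A in OPM2 (blue) and H929 (red) in the reported fit and in each alternative. The count is 6 in both lines as reported, 0 in OPM2 without DMSO replicate 2 or 3, and 12 and 16 without OPM2 dBRD9-A replicate 2.

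The lines differed from each other more than either differed from its treated counterpart. With DMSO, 20 of the 44 genes (45.5%) were called between H929 and OPM2, 11 higher and 9 lower in H929, against 60.2% of all genes (edgeR), with 32.6% higher and 27.5% lower. At 2-fold or more, 4 of the 44 were called, against 36.3% of all genes. The median log2 fold change was 0.07, where that of all genes was 0.05. Scaling by library size alone moved the median of all genes to -0.07 and the split to 9 higher and 12 lower.

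The largest differences were in the cytoplasmic activator, whose subunits PSME1 and PSME2 are induced by interferon. PSME1 was at 60.6, 58.7 and 71.0 CPM in OPM2 and at 223, 212 and 201 CPM in H929. It was 3.35-fold higher in H929 (log2 1.74 ± 0.11, edgeR adjusted p = 3.558e-08). PSME2 was 3.17-fold higher, with the DMSO values given above (log2 1.67 ± 0.12, edgeR adjusted p = 1.495e-07). PSME3 and PSME4 were at similar levels, with 95% intervals of -0.25 to 0.37 and -0.16 to 0.30 for the log2 difference. PSMF1 was lower in H929 (-0.34 ± 0.10, edgeR adjusted p = 0.00771).

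Within the core, 5 genes were higher and 3 lower in H929. PSMA5 was 2.56-fold higher in H929 (log2 1.36 ± 0.17, edgeR adjusted p = 2.43e-05). PSMB1, a noncatalytic beta subunit, was at 142, 132 and 141 CPM in OPM2 and at 75.5, 74.1 and 64.1 CPM in H929. The groups were far apart, at -0.96 ± 0.11 (edgeR adjusted p = 8.381e-06). PSMA3, PSMA6, PSMB6 and PSMB7 were also higher in H929, by 0.34 to 0.76 on the log2 scale, and PSMA1 and PSMA2 lower (-0.49 and -0.33). PSMB5 was not called (0.28 ± 0.14, edgeR adjusted p = 0.0962).

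In the cap, 3 of 17 genes were higher and 2 lower in H929. PSMC5, a base ATPase, was at 128, 127 and 130 CPM in OPM2 and at 221, 235 and 201 CPM in H929 (0.77 ± 0.10, edgeR adjusted p = 2.802e-05). PSMD7, a structural partner of PSMD14 in the lid, was at 282, 274 and 312 CPM in OPM2 and at 192, 209 and 185 CPM in H929. It was lower in H929 with no overlap (-0.57 ± 0.21, edgeR adjusted p = 0.0316). PSMC1 (0.54) and PSMD6 (0.38) were higher and PSMC3 (-0.26) lower.

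**Figure D5:**
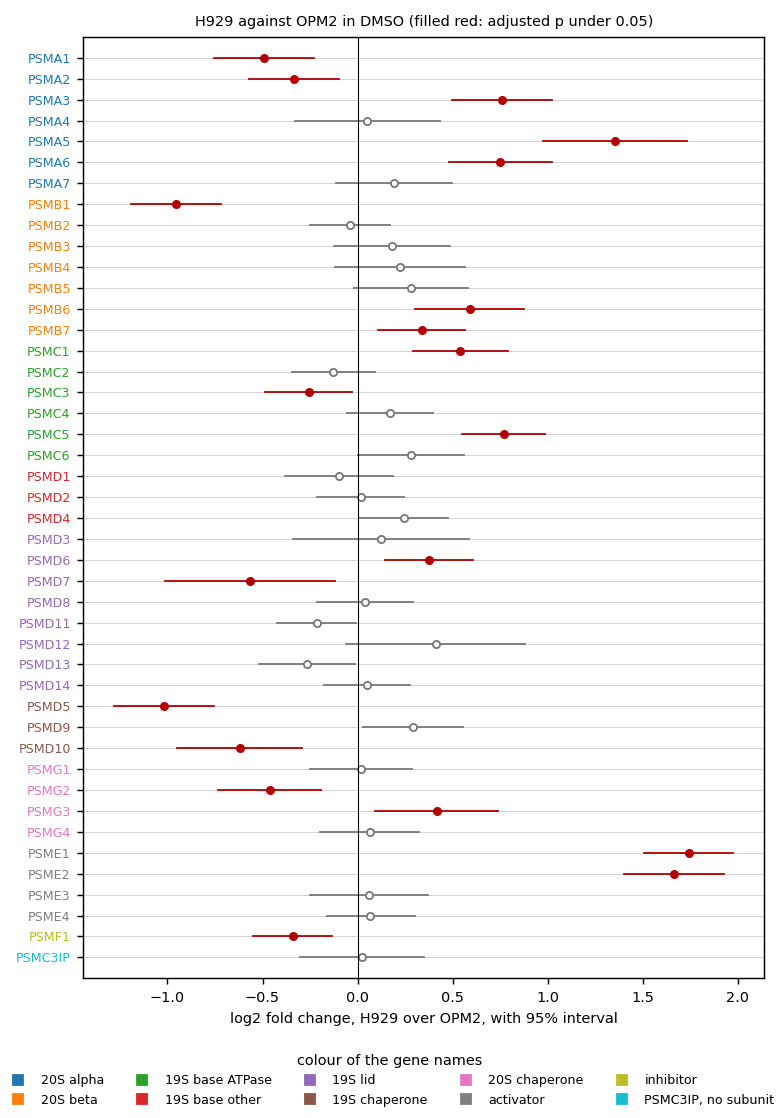
Log2 fold change of each tested gene in H929 over OPM2 with DMSO, with 95% intervals; filled red points have an adjusted p under 0.05. PSME1, PSME2 and PSMA5 lie farthest right and PSMD5 and PSMB1 farthest left.

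Of the assembly factors, PSMD5, whose OPM2 and H929 values are given above, was 0.49 of its OPM2 level in H929 (log2 -1.02 ± 0.12, edgeR adjusted p = 1.213e-05). Its antisense neighbour PSMD5-AS1 had 21.9 ± 0.220 CPM in the OPM2 and 22.2 ± 1.87 CPM in the H929 libraries. Whether reads were counted by strand is not stated, so reads shared by the pair cannot be told apart. PSMD10, also called gankyrin, was at 54.1, 49.2 and 57.8 CPM in OPM2 and at 39.9, 31.3 and 33.6 CPM in H929, lower with no overlap (-0.62 ± 0.15, edgeR adjusted p = 0.00346). PSMG2 was lower (-0.46 ± 0.13, edgeR adjusted p = 0.00657) and PSMG3 higher in H929 (0.42 ± 0.15, edgeR adjusted p = 0.0280). PSMG1 and PSMG4 were close between the lines, with 95% intervals of -0.25 to 0.28 and -0.20 to 0.33. The antisense neighbour of PSMG3, PSMG3-AS1, had 0.268 ± 0.0838 CPM in the OPM2 and 1.25 ± 0.181 CPM in the H929 libraries.

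Of the 20 calls between the lines, 13 held in all 23 alternative fits, among them those of PSME1, PSME2, PSMA5, PSMC5, PSMD5 and PSMB1. PSMG3 and PSMC3 lost the call in 10 fits, among them those without OPM2 DMSO replicate 1, 2 or 3 and without H929 DMSO replicate 1 or 2. PSMC3 also lost it without H929 DMSO replicate 3 or OPM2 dBRD9-A replicate 3, and PSMG3 without H929 dBRD9-A replicate 3. PSMD7 and PSMA2 lost it in 5 fits, PSMD7 without any 1 of the OPM2 DMSO libraries or without H929 DMSO replicate 1 or 3, and PSMA2 without OPM2 DMSO replicate 1 or 3 or H929 DMSO replicate 3. PSMB7 lost it without H929 DMSO replicate 1 and with scaling by library size alone. PSMD6 lost it with the length trend removed (edgeR adjusted p = 0.05145). With the GC trend removed, PSMA2, PSMD10 and PSMG3 were not called.

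Outside these symbols, 37 further genes of the pathway were tested, from the ubiquitin receptors to the transcription factors of proteasome genes. In OPM2, 3 fell (8.11%, against 7.34% of all genes) and none rose, and in H929, 4 fell (10.8%, against 5.67%) and none rose (edgeR). The OPM2 share was near the background. Median log2 fold changes were -0.12 and -0.14. ADRM1, the other ubiquitin receptor of the cap, fell in H929 from 208 ± 15.03 to 149 ± 23.3 CPM (-0.49 ± 0.12, edgeR adjusted p = 0.0208). UCHL5, the deubiquitinase that ADRM1 holds, fell there from 138 ± 9.37 to 80.9 ± 10.8 CPM (-0.77 ± 0.20, edgeR adjusted p = 0.0261). USP14, another deubiquitinase of the cap, fell from 207 ± 11.5 to 164 ± 6.98 CPM (-0.33 ± 0.09, edgeR adjusted p = 0.0320). NFE2L1, the factor that raises proteasome transcription when the proteasome is inhibited, fell in H929 as well, from 142 ± 19.9 CPM to 104 ± 10.8 CPM (-0.45 ± 0.13, edgeR adjusted p = 0.0442). In OPM2, MAFK, a small MAF partner of such factors, fell from 14.95 ± 0.952 to 7.40 ± 2.80 CPM (-0.995 ± 0.248, edgeR adjusted p = 0.0174). The ubiquitin ligase UBE3C (-0.52 ± 0.16, edgeR adjusted p = 0.0436) and the shuttle UBQLN4 (-0.46 ± 0.14, edgeR adjusted p = 0.0477) also fell in OPM2.

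None of these 37 genes was called for the difference of the responses. Between the lines with DMSO, 12 were lower (32.4%, against 27.5% of all genes) and 5 higher (13.5%, against 32.6%) in H929. POMP, the chaperone that completes the core beside the PSMG proteins, had 89.7 ± 3.77 CPM in the OPM2 libraries and 43.3 ± 5.47 CPM in the H929 libraries (-1.05 ± 0.19, edgeR adjusted p = 0.000375). It was not called with dBRD9-A in either line (0.11 ± 0.19 and -0.14 ± 0.19). PSMB10, an immunoproteasome subunit, had 68.7 ± 0.584 CPM in the OPM2 libraries and 74.04 ± 8.04 CPM in the H929 libraries, and was called in no comparison. PSMB8, another such subunit, was low, at 0.796 ± 0.134 CPM in OPM2 and 1.80 ± 0.365 CPM in H929 with DMSO. Those groups did not overlap, but the difference was not called (1.17 ± 0.51, edgeR adjusted p = 0.0645). PSMB9 was not tested.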

How the data were processed

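Per the submitters' processing notes, STAR and featureCounts were among the tools, no versions are given, and hg19 and GRCh37 are named as builds. Per the file headers, each of 12 files lists, for 51780 RefSeq transcripts, the columns Count, FPKM and TPM. The deposited counts were whole and not normalized, the deposited FPKM values served only to recover transcript length, and the deposited TPM values gave levels per length. The sources used here do not state whether counting used strand. Promoters are from RefSeq's GRCh38.p14 table, another build than the files', and serve as sequence only.

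Here 1 transcript per gene was fitted across all genes with edgeR 4.0.16 (R 4.3.3) by the quasi-likelihood test: filterByExpr, TMM, 1 mean for each of 4 groups over 12 libraries, 8 residual degrees of freedom and Benjamini-Hochberg adjustment over 16408 genes. A gene was called at an adjusted p under 0.05. The test was checked on counts simulated without an outlying library or a GC trend, so the check does not cover those features of these data. CPM values were scaled by TMM. Intervals are 95%. DESeq2 1.42.0, limma-voom (limma 3.58.1), other scalings and filters, GC and length corrections, a block and each library left out were alternatives.

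Members, lists and the rule for named genes were chosen with earlier results of these data known. Values by library were given for PSMB5, PSMB6, PSMB7, PSMD14, PSMG1, PSMD5, PSME4, PSMF1, PSMA8, PSMB11 and PSMC3IP, and for the 4 highest and 4 lowest called members of each comparison. PSMG3 was added after its values were seen, as were PSMD12 and the other members given a value by class. Of each outside list, up to 3 called genes were named, those of largest change, and POMP, PSMB8 and PSMB10 were added after their values were seen.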

Additional observations from a re-analysis of the deposited data

How the results depend on the processing

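The number of genes called in OPM2, 6 as reported, was 10 with DESeq2, 19 with limma-voom and library weights, and 0 with the OPM2 libraries fitted alone. Leaving out each library in turn gave 0 to 12 calls in OPM2 and 1 to 16 in H929. In H929, 6 as reported, 18 were called with limma-voom, 13 with the H929 libraries fitted alone and 12 with the GC trend removed. The difference of the responses gave 0 in every alternative run, and the 20 calls between the lines stayed within 1.5 times. Over all genes, DESeq2 called 4092 in OPM2 and limma-voom 7243, against 2857. The OPM2 libraries fitted alone gave 871 of 14956. In H929, limma-voom called 5910 of all genes and the fit with the GC trend removed 3548, against 2134. The H929 libraries fitted alone gave 4970 of 15410. PSMD12 in OPM2 was 0.16 as reported, -0.20 with limma-voom and -0.26 without OPM2 dBRD9-A replicate 2, the lowest value with a library left out, where the highest was 0.34. In their deviations from the group means, same-numbered DMSO and dBRD9-A libraries correlated at 0.296, -0.023 and -0.116 in OPM2 and at -0.123, -0.168 and -0.123 in H929. These means rest on 3 libraries, and the deviations of several libraries ran with GC content. The values therefore cannot decide whether libraries are paired by number. Differently numbered libraries correlated at -0.278 to 0.198 in OPM2. In H929, DMSO 1 with dBRD9-A 2, 2 with 3 and 3 with 1 correlated at 0.52, 0.703 and 0.647. The opposite shift in H929 gave -0.612, -0.383 and -0.444. Whether H929 libraries are paired in another order was not tested, and no fit used one. The replicate block, by number over both lines, left 3 calls in OPM2 and 4 in H929, and 3 in OPM2 with the GC trend removed as well. Except where fewer or reweighted libraries change the spread by construction, the cause was not tested. PSMA8 and PSMB11 had a few reads at most and were not tested. The 3 libraries per group left 95% intervals of the treatment effects reaching -0.96 to 0.63 in OPM2 and -1.06 to 0.44 in H929.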

Other observations

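Single genes show how OPM2 dBRD9-A replicate 2 departs from its group. PSMA4 (transcript GC 42.1%) was at 229 CPM there and at 134 CPM in replicates 1 and 3, PSMD12 (37.9%) at 172 CPM against 90.3 and 83.3, and PSMD7 (45.8%) at 398 CPM against 206 and 217. PSMD3 (58.6%) was at 79.8 CPM against 164 and 160, and PSMB4 (51.8%) at 237 CPM against 369 and 340. PSMA5, of the lowest GC content among these genes (37.3%), was at 22.0 CPM there against 37.4 and 33.5. These genes were chosen after their values were seen.

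The interferon element found before the start of PSMG4 has the same letters, GAAAGCGAAA, as the one found before the start of PSME2 (from -28 to -19). PSME2 was 3.17-fold higher in H929 than in OPM2 with DMSO, whereas PSMG4 was at 15.8 ± 0.658 CPM in OPM2 and 16.5 ± 1.28 CPM in H929. Of the other members with the element, PSME1 was higher in H929 (log2 1.74), and PSMA4 and PSMB4 were not called (0.051 and 0.225). The part of the element in these values was not tested.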
